A study of Mus musculus with 34 samples.

Results

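The 10 genes described here are feedback regulators and transcriptional targets of the WNT/β-catenin pathway, chosen by symbol as Apc, Axin2, Nkd1, Notum, Rnf43, Znrf3, Lgr5, Tcf7, Lef1 and Sp5. Each symbol was matched to 1 Ensembl identifier, and all 10 of 10 were among the 14107 genes of the count table. RNA was sequenced from NaJa-D, NaJa-F and NaJa-G, 3 mouse colorectal cancer cell lines, each grown from the peritoneal lavage of 1 recipient C57BL/6N mouse that had been transplanted orthotopically with colon organoids. The organoids carried the alleles VillinCreERT2, BrafV600E/+, Trp53R172H and APCdel, which all 12 groups share, DMSO controls included. The Villin promoter limits the Cre recombinase to intestinal epithelium, and tamoxifen activates it.

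Cells were treated with 0.5 µM encorafenib, which inhibits BRAF carrying the V600E change, or with the solvent DMSO, and were harvested at day 1 or day 5. Medium and compound were renewed for the day 5 groups, and all cells were plated at the same time, so the day 5 cultures had been grown longer after plating. The study's methods state that confluence was checked before harvest and was consistent, without naming the groups compared. Of the 12 groups of line, treatment and day, 10 had 3 libraries. The groups with 2 libraries were encorafenib day 5 of NaJa-F and DMSO day 5 of NaJa-G. The labels do not say whether the replicates of a group came from separate cultures, so the adjusted p values below measure only the spread between these libraries. The question for these genes was how their level moved from day 1 to day 5 in DMSO, and how the treated arm compared with that.

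In canonical WNT signaling, secreted WNT ligands bind Frizzled and LRP receptors, which stops a cytoplasmic complex of APC, AXIN and the kinases GSK3 and CK1 from marking β-catenin for destruction. β-Catenin then enters the nucleus and activates genes together with TCF and LEF factors. Many of these genes encode inhibitors of the same pathway, so their transcripts are a common readout of its activity. In the intestine the pathway maintains the crypt stem cells, for which Lgr5 is the best known marker, and loss of APC activates it without ligand. Rnf43 and Znrf3 encode membrane ubiquitin ligases that remove Frizzled receptors, and Lgr5 encodes an R-spondin receptor that counteracts them. Axin2 is a scaffold of the destruction complex, Nkd1 binds the signal transducer Dishevelled, and Notum is a secreted enzyme that inactivates WNT ligands. Tcf7 and Lef1 encode transcription factors that bind β-catenin, and Sp5 encodes a target transcription factor of the same pathway.

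The sequences upstream of 3 members are shown because TCF and LEF factors bind DNA at a known core motif. These members were picked as examples that behaved differently in the comparisons below, and a relation of the motif to that behavior was not tested. Windows of 250 bases before to 50 bases after a start were taken from RefSeq (GRCm38.p6) for 6 of the 10 members, 11 windows in all. They were searched on both strands for CTTTGAT and CTTTGAA, which differ in their last base. Sp5 was the member with a match. The match was CTTTGAT on the strand of the gene, 104 bases before the start. It is printed in capitals, and all other bases are in lower case. The lines give the 250 bases before the start, 5′ to 3′ on the plus strand, for Axin2 (chr11:108920099-108920348), Nkd1 (chr8:88527383-88527632, within an intron of the longer GENCODE model of Nkd1) and Sp5 (chr2:70474673-70474922).

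Axin2: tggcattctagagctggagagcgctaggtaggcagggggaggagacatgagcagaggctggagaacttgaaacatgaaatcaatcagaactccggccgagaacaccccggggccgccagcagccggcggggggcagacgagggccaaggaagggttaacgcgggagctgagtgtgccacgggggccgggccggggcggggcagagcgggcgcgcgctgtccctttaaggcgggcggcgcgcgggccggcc
Nkd1: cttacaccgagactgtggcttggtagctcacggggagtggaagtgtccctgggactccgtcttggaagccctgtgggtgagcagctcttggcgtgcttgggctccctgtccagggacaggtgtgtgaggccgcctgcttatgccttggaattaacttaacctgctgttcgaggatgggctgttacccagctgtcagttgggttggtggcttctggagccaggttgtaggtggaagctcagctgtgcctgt
Sp5: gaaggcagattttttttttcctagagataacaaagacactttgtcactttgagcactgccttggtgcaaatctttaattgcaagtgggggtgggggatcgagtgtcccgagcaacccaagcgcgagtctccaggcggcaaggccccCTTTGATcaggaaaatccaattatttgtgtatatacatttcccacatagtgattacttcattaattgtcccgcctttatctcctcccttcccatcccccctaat

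Of all 32851 promoter windows of this table, 2842 (8.65%) held either motif, as did 769 (5.88%) of the 13082 windows of genes that were counted. A match of these letters in 1 of the 11 member windows is a description of the windows, and the absence of the letters elsewhere says nothing about binding outside them. Windows on chr18 were left out of the member search, so Apc was not searched, whereas the shares over all windows keep that chromosome. Notum, Znrf3 and Lgr5 had no window to search.

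All 10 members are protein coding. In GENCODE M21 (GRCm38, the build of the files), Axin2 lies on chr11 from 108920349 to 108950783, Notum on chr11 from 120653788 to 120661175, Rnf43 on chr11 from 87662722 to 87735539, Znrf3 on chr11 from 5276324 to 5444847 and Tcf7 on chr11 from 52252371 to 52283014. Nkd1 lies on chr8 from 88521354 to 88594884, Lgr5 on chr10 from 115450311 to 115587780, Lef1 on chr3 from 131110471 to 131224356, Sp5 on chr2 from 70474923 to 70477729 and Apc on chr18 from 34220924 to 34322552. Of the 2408 exonic bases of Notum, the antisense gene Notumos overlaps 708 and Myadml2os 210. Of the 5506 exonic bases of Axin2, the antisense gene Gm11670 overlaps 209. Exons of Lef1 are overlapped as well, by the antisense gene Gm43352. That gene was not in the count table, so its level is not known here. The counting was not stated to use strand, so reads from these overlaps cannot be told apart. The levels of Notum, Axin2 and Lef1, and their changes below, are uncertain to that extent. Notumos averaged 0.23 to 3.94 CPM over the 12 groups and Notum 3.61 to 82.2 CPM.

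Total counts per library ranged from 46007050 to 80121299. Abundance is given as CPM, a count relative to the library total, scaled with TMM factors, which ranged from 0.876 to 1.07. In bulk RNA, fewer cells of a type and less RNA per cell cannot be told apart. By its title, 1 library is replicate 3 of NaJa-D DMSO day 1, but its label for the cell line reads NaJa-G. It was kept by its title. Its Nkd1 level was 0.606 CPM, against 0.68 and 0.817 CPM in the other NaJa-D DMSO day 1 libraries and 78.2 to 97.9 CPM in NaJa-G DMSO day 1.

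All 8 fixed markers of intestinal epithelium were in the table, and their summed level ranged from 4114 to 6829 CPM in NaJa-D, 3554 to 5709 CPM in NaJa-F and 1968 to 3301 CPM in NaJa-G. Most of this came from Krt8, Krt18, Cdh1 and Epcam, which are expressed in many epithelia. Group means of the more intestine-specific markers were 0.35 to 13.5 CPM for Vil1 (villin), 1.09 to 21.1 CPM for Krt20 and 0.936 to 18 CPM for Lgals4. Cdx2, an intestinal transcription factor, averaged 43.6 to 56.5 CPM in NaJa-F, 13.1 to 22.7 CPM in NaJa-D and 1.29 to 8.93 CPM in NaJa-G. Of the fibroblast markers 4 of 6 were in the table, and their sum was 1.31 to 3.83 CPM in NaJa-D, 1.94 to 5.52 CPM in NaJa-F and 14.8 to 118 CPM in NaJa-G. Of the mesothelial markers Msln made up nearly all of a sum of 497 to 3520 CPM, while Upk3b and Lrrn4 averaged at most 6.18 CPM and 3.51 CPM in any group. Leukocyte markers were represented by Cd68 (3.32 to 7.26 CPM), 1 of 6, and endothelial markers by Kdr (0.164 to 1.36 CPM), 1 of 3. The other markers of these lists, among them Thy1, Wt1, Ptprc and Pecam1, were not in the table used here.

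**Figure D1:**
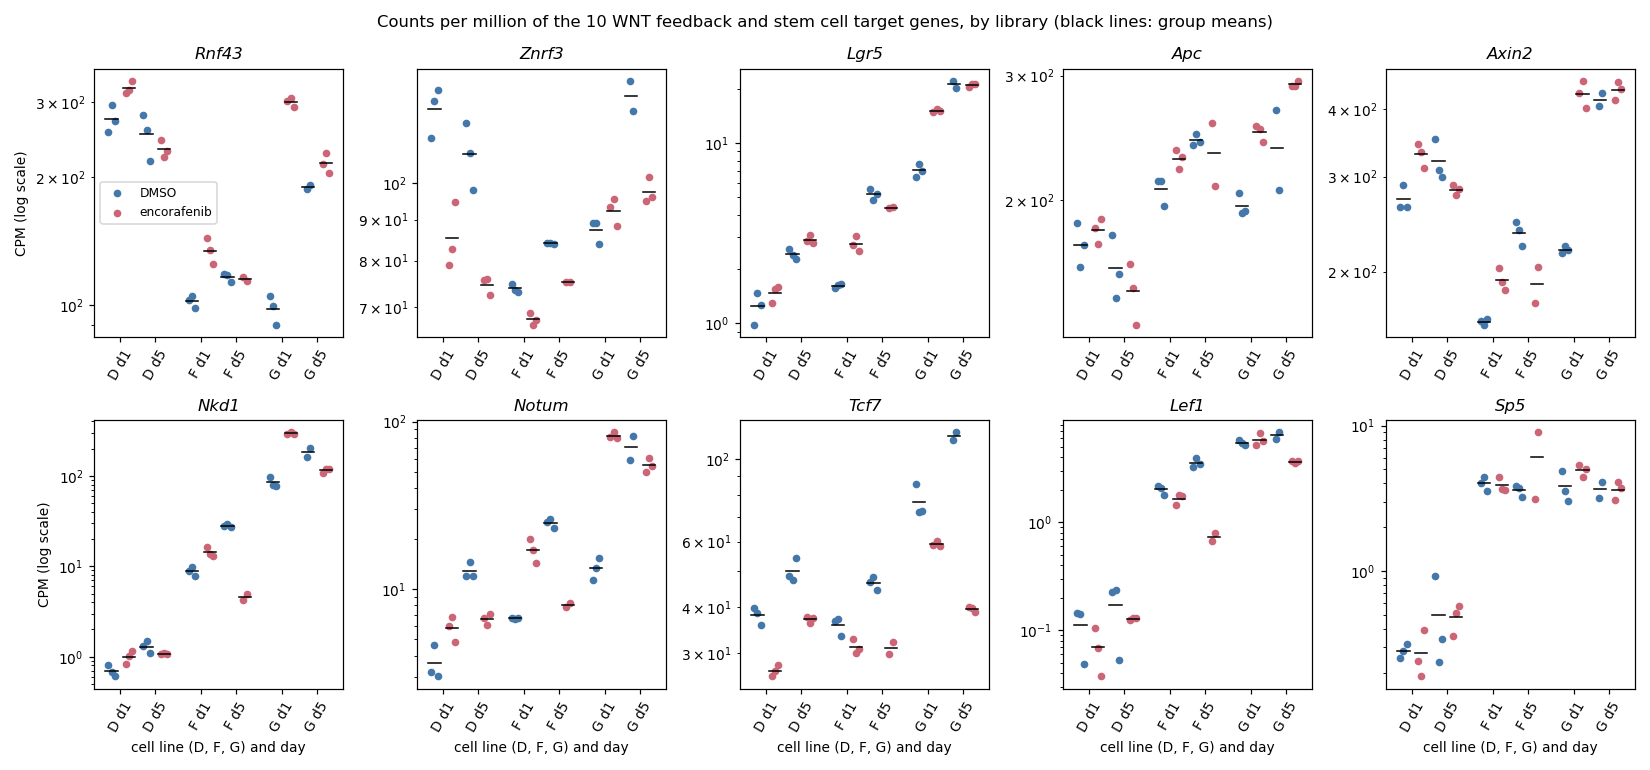
CPM on a log axis for each of the 10 members, with 1 point per library, black lines for group means and the lines D, F and G with their days along the horizontal axis (blue DMSO, red encorafenib). Nkd1, Lef1 and Sp5 sit lowest in NaJa-D, and Notum, Lgr5 and Nkd1 reach their highest levels in NaJa-G.

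Against NaJa-D, the members with the largest differences were Nkd1 and Lef1. Between NaJa-G and NaJa-F they were Nkd1 and Lgr5. At day 1 in DMSO, Nkd1 was at 0.817, 0.68 and 0.606 CPM in the 3 libraries of NaJa-D, 8.87, 9.77 and 7.85 CPM in NaJa-F, and 97.9, 78.2 and 78.2 CPM in NaJa-G. No libraries of different lines overlapped. Over both days in DMSO, Nkd1 in NaJa-F exceeded NaJa-D by 4.04 log2 units (SE 0.18), and NaJa-G exceeded NaJa-F by 2.97 log2 units (SE 0.07). Lef1 was at 0.0485 to 0.147 CPM in NaJa-D, 1.81 to 2.2 CPM in NaJa-F and 5.19 to 5.8 CPM in NaJa-G at day 1 in DMSO. Its difference was 4.34 log2 units (SE 0.26) between NaJa-F and NaJa-D and 1.15 log2 units (SE 0.10) between NaJa-G and NaJa-F. Lef1 had as few as 2 counts in a NaJa-D library, so its NaJa-D values carry a large counting error.

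Sp5 was low in NaJa-D, at 0.251, 0.282 and 0.315 CPM in the day 1 DMSO libraries, and at 3.55 to 4.45 CPM in NaJa-F and 3.03 to 4.87 CPM in NaJa-G. Over both days in DMSO it exceeded NaJa-D by 3.38 log2 units (SE 0.37) in NaJa-F and 3.36 log2 units (SE 0.38) in NaJa-G, while NaJa-G and NaJa-F differed by -0.02 log2 units (95% interval -0.41 to 0.37). Every gene of the table exceeded 1 CPM in at least 2 libraries, and Lef1 and Sp5 were below 1 CPM in every NaJa-D library, so both were in the table through the other lines, and their difference from NaJa-D is partly set by that.

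Lgr5 followed an order of NaJa-D, NaJa-F and NaJa-G. It was at 0.984, 1.48 and 1.26 CPM in NaJa-D, 1.58, 1.63 and 1.65 CPM in NaJa-F and 6.5, 7.66 and 7.02 CPM in NaJa-G at day 1 in DMSO. NaJa-G lay above both other lines in every DMSO library of the same day, by 2.07 log2 units (SE 0.07) against NaJa-F. Tcf7 was also highest in NaJa-G, at 72.1 to 85.9 CPM against 35.7 to 39.8 CPM in NaJa-D and 33.4 to 37.2 CPM in NaJa-F at day 1 in DMSO.

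Rnf43 was highest in NaJa-D. It was at 256 to 297 CPM in NaJa-D against 98.7 to 106 CPM in NaJa-F and 90.1 to 105 CPM in NaJa-G at day 1 in DMSO. Over both days its log2 difference from NaJa-D was -1.26 (SE 0.05) in NaJa-F and -0.94 (SE 0.05) in NaJa-G. The log2 difference of Znrf3 from NaJa-D was -0.55 (SE 0.04) in NaJa-F and -0.13 in NaJa-G, which did not pass (adjusted p = 0.0169). Against NaJa-F, both ligases were higher in NaJa-G (0.32, SE 0.05 for Rnf43 and 0.43, SE 0.05 for Znrf3). Axin2 was lower in NaJa-F than in NaJa-D (-0.59, SE 0.04) and did not differ beyond the threshold between NaJa-G and NaJa-D (0.04, 95% interval -0.06 to 0.13). By limma at an adjusted p below 0.01, 9 of the 10 members differed in NaJa-F against NaJa-D, with 6 higher and 3 lower (61.6% of all genes called, 32.6% higher and 29.0% lower). In NaJa-G against NaJa-D 8 differed, with 7 higher and 1 lower (67.4% called, 33.3% higher and 34.1% lower), and in NaJa-G against NaJa-F 8, all higher (54.4% called, 25.2% higher). These shares stand beside a background in which most genes differed between the lines. The higher counts against NaJa-D include Lef1 and Sp5, which were in the table through the other lines, so these counts are partly set by that.

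Per length of exon (RPKM, CPM divided by kilobases of exon), the highest of the members at day 1 in DMSO was Axin2 in every line, at 49.5 RPKM in NaJa-D, 29.3 RPKM in NaJa-F and 39.9 RPKM in NaJa-G. Rnf43 was next in NaJa-D and NaJa-F, at 41.9 and 15.6 RPKM, and Tcf7 was next in NaJa-G, at 29.3 RPKM. Lef1 was the lowest in NaJa-D and NaJa-G, at 0.0127 and 0.623 RPKM, and Lgr5 was the lowest in NaJa-F, at 0.158 RPKM. Apc transcript was present in every library, at 133 to 295 CPM. The gene counts cover exons outside the deleted part, so they do not check the deletion.

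Between day 1 and day 5 in DMSO, Notum, Lgr5, Axin2 and Tcf7 rose in all 3 lines. Notum was at 3.2, 4.62 and 3.01 CPM in NaJa-D at day 1 and at 11.9, 14.6 and 12 CPM at day 5. In NaJa-F it was at 6.6 to 6.72 CPM at day 1 and 23.2 to 26.3 CPM at day 5. In NaJa-G it was at 11.3, 13.4 and 15.3 CPM at day 1 and at 58.9 and 82.2 CPM at day 5. Every day 5 library was above every day 1 library of its line, and the log2 fold changes were 1.84 (SE 0.21), 1.90 (SE 0.15) and 2.41 (SE 0.13). The antisense Notumos, which shares exonic bases with Notum, rose as well, by 1.33, 1.27 and 2.04 log2 units.

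Lgr5, the R-spondin receptor, was at 0.984 to 1.48 CPM at day 1 and 2.28 to 2.57 CPM at day 5 in NaJa-D. In NaJa-F it went from 1.58 to 1.65 CPM at day 1 to 4.81 to 5.55 CPM at day 5. In NaJa-G it was at 6.5 to 7.66 CPM at day 1 and at 22.1 and 20.1 CPM at day 5. The libraries of the days did not overlap in any line, and the rises were 0.98 (SE 0.16), 1.67 (SE 0.12) and 1.58 (SE 0.07) on the log2 scale.

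Axin2 rose less, by 0.23 (SE 0.06) in NaJa-D, 0.55 (SE 0.06) in NaJa-F and 0.92 (SE 0.07) in NaJa-G. Its levels in NaJa-G were 217, 223 and 219 CPM at day 1 and 405 and 428 CPM at day 5. The NaJa-D rise did not pass without DMSO day 1 replicate 1 (adjusted p = 0.0263), DMSO day 1 replicate 3 (0.0318) or DMSO day 5 replicate 1 (0.0465), and was 0.41 when scaled by library size only. Tcf7 rose by 0.59 log2 units in NaJa-G, 0.38 in NaJa-F and 0.39 in NaJa-D, with SE 0.06 to 0.07.

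Nkd1 rose in NaJa-F, from 7.85 to 9.77 CPM at day 1 to 27 to 29.5 CPM at day 5, a log2 fold change of 1.68 (SE 0.11). In NaJa-G it rose by 1.10 (SE 0.09), and in NaJa-D its log2 fold change of 0.85 (SE 0.34) did not pass (adjusted p = 0.0474), although it did with edgeR (0.00156) and DESeq2 (0.000247). Rnf43 and Znrf3 rose in NaJa-G, by 0.95 (SE 0.08) and 0.56 (SE 0.07), and neither passed in the other lines. Lef1 rose in NaJa-F, by 0.81 (SE 0.16), which did not pass with limma-trend (adjusted p = 0.0312). Apc and Sp5 passed in no line, with log2 fold changes of -0.11 to 0.26 and -0.16 to 0.62.

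In all, 4 of 10 members rose in NaJa-D (29.0% of all genes called, 13.7% higher), 6 in NaJa-F (16.7% called, 9.73% higher) and 7 in NaJa-G (34.1% called, 17.2% higher), and none fell by the test. The median log2 fold change over the members is set beside a median of 0.00 to 0.01 over all genes. It was 0.76 in NaJa-G, 0.46 in NaJa-F and 0.40 in NaJa-D. Scaling by library size only moved the median of all genes to 0.185 in NaJa-D and to 0.0833 and 0.0701 in NaJa-F and NaJa-G. It also moved the share of higher genes among all calls from 47.4% to 81.7%, 58.1% to 78.6% and 50.6% to 62.4%, in the same order. No called change of a member turned its sign under that scaling.

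The treated arm did not follow the same course. Notum in encorafenib was at 4.85 to 6.76 CPM at day 1 and 6.12 to 7.13 CPM at day 5 in NaJa-D, which overlapped. In NaJa-F it was at 19.8, 17 and 14.3 CPM at day 1 and at 7.83 and 8.21 CPM at day 5. In NaJa-G it was at 79.6 to 86.1 CPM at day 1 and 49.7 to 60.8 CPM at day 5. Notum thus fell from day 1 to day 5 in encorafenib by 1.07 log2 units in NaJa-F (-1.07, SE 0.17) and by 0.59 log2 units in NaJa-G (-0.59, SE 0.10), the lines in which it rose in DMSO by 1.90 and 2.41.

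Nkd1 had the same opposition of arms. In encorafenib it was at 16.3, 13.8 and 13.1 CPM at day 1 and at 4.26 and 4.9 CPM at day 5 in NaJa-F, a log2 fold change of -1.64 (SE 0.16). In NaJa-G it was at 289 to 302 CPM at day 1 and 107 to 120 CPM at day 5, a log2 fold change of -1.36 (SE 0.08). Lef1 fell in encorafenib by 1.16 log2 units in NaJa-F (-1.16, SE 0.26) and 0.68 log2 units in NaJa-G (-0.68, SE 0.12). The Lef1 fall in NaJa-F did not pass without encorafenib day 5 replicate 1 (-1.08, adjusted p = 0.0224), where 1 library remained in the group.

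Lgr5 was the member that rose with time in both arms of every line. Its rise in encorafenib was 0.99 (SE 0.13) in NaJa-D, 0.67 (SE 0.11) in NaJa-F and 0.48 (SE 0.06) in NaJa-G. Tcf7 rose in encorafenib in NaJa-D, by 0.46 (SE 0.07), and fell in NaJa-G, by 0.58 (-0.58, SE 0.06). Rnf43 fell in NaJa-D and NaJa-G, by 0.48 log2 units in each (-0.48, SE 0.07). Apc (-0.29) and Axin2 (-0.21) fell in NaJa-D, and both calls were lost when libraries were scaled by library size only (adjusted p = 0.0726 and 0.238). Of the 10 members, 5 passed in NaJa-D, 2 higher and 3 lower (26.7% of all genes called, 12.5% higher and 14.2% lower). In NaJa-F 4 passed, 1 higher and 3 lower (22.5% called, 10.2% higher and 12.3% lower), and in NaJa-G 6, 1 higher and 5 lower (41.0% called, 20.6% higher and 20.4% lower).

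**Figure D2:**
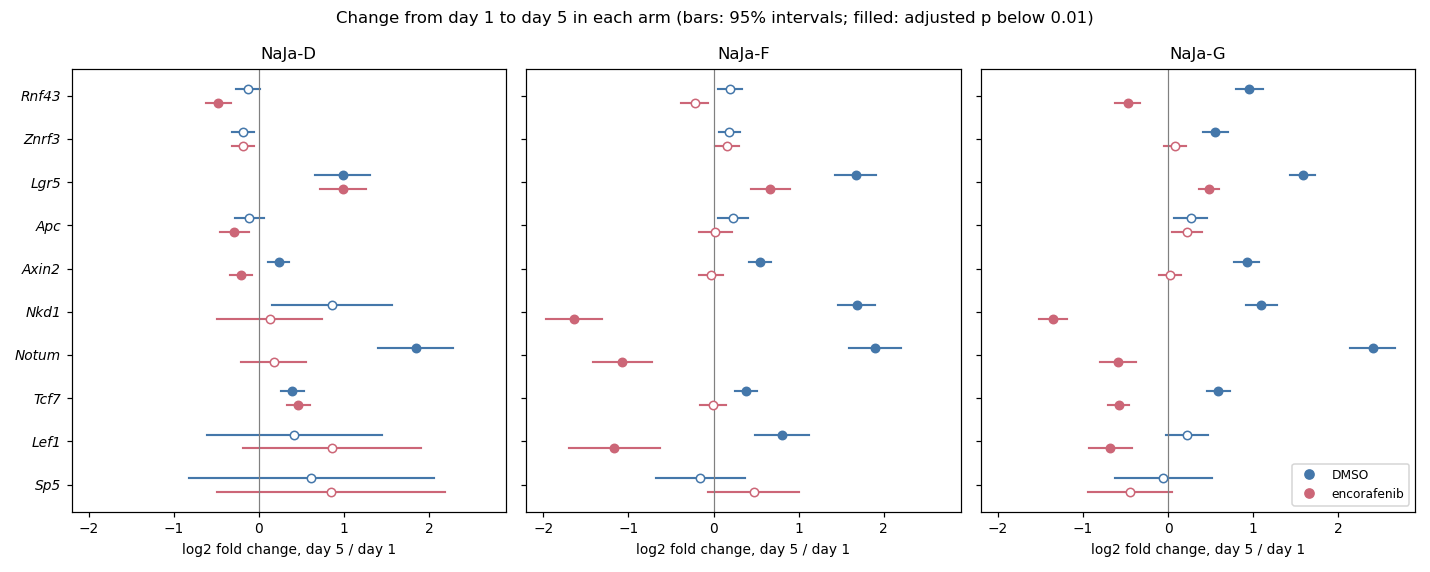
Log2 fold change from day 1 to day 5 (horizontal axis) of each member in DMSO (blue) and in encorafenib (red) for the 3 lines, with 95% intervals and filled points at an adjusted p below 0.01. In NaJa-F and NaJa-G the DMSO points of Nkd1 and Notum lie above 1 and the encorafenib points below 0, whereas the Lgr5 points lie above 0 in both arms.

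The difference between the changes of both arms was tested directly. It is the same contrast as the encorafenib response at day 5 minus that at day 1. Notum had a difference of -1.67 (SE 0.28) in NaJa-D, -2.97 (SE 0.23) in NaJa-F and -2.99 (SE 0.17) in NaJa-G. For the antisense Notumos it was -1.98 in NaJa-F and -2.53 in NaJa-G, both past the threshold, and -1.54 in NaJa-D, which did not pass. Nkd1 had a difference of -3.32 (SE 0.19) in NaJa-F and -2.45 (SE 0.12) in NaJa-G, and -0.73 (95% interval -1.66 to 0.21) in NaJa-D, where it is expressed at about 1 CPM. Axin2 passed in all lines, with -0.44 (SE 0.09), -0.58 (SE 0.09) and -0.90 (SE 0.10). The NaJa-D difference of Axin2 did not pass in a fit of its own groups alone (adjusted p = 0.0319).

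Lgr5, Lef1, Tcf7 and Rnf43 passed in NaJa-F and NaJa-G. Lgr5 had a difference of -1.0 (SE 0.16) in NaJa-F and -1.10 (SE 0.09) in NaJa-G, and 0.01 (95% interval -0.41 to 0.43) in NaJa-D. Lef1 had -1.97 (SE 0.30) and -0.90 (SE 0.17), Tcf7 -0.39 (SE 0.10) and -1.17 (SE 0.09), and Rnf43 -0.41 (SE 0.10) and -1.43 (SE 0.11) in NaJa-F and NaJa-G. Znrf3 passed in NaJa-G, with -0.48 (SE 0.09). The NaJa-G difference of Lef1 did not pass with limma-trend (adjusted p = 0.0812), nor did its fall with time in encorafenib there (0.0424). In NaJa-F the Rnf43 difference was lost in 9 of the 11 fits that left out 1 library (adjusted p from 0.0103 to 0.0304), and the Tcf7 difference in 6 of them (0.0126 to 0.0462).

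Thus 2 of 10 members passed in NaJa-D, both lower (7.29% of all genes called, 4.54% lower), 7 in NaJa-F, all lower (5.88% called, 4.95% lower), and 8 in NaJa-G, all lower (31.7% called, 16.2% lower). The median difference of the members is given beside that of all genes, -0.00 to 0.02. It was -1.0 in NaJa-G, -0.49 in NaJa-F and -0.09 in NaJa-D. Leaving out 1 library at a time gave 2 to 3 called members in NaJa-D, 5 to 7 in NaJa-F and 8 in NaJa-G. Apc and Sp5 passed in no line.

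Marker sums moved with some of these groups. The sum of the 8 epithelial markers was lower at day 5 than at day 1 in DMSO without overlap in every line. It went from 5052 to 5269 down to 4114 to 4329 CPM in NaJa-D and from 4062 to 4549 down to 3554 to 3656 CPM in NaJa-F. In NaJa-G it went from 2635 to 3252 down to 1968 to 2261 CPM. Group means of Krt8, Krt18 and Epcam fell in every line. Those of Vil1 and Lgals4 rose in every line, in NaJa-D from 6.36 to 13.5 CPM and from 1.16 to 4.21 CPM. Krt20, Cdx2 and Cdh1 differed in direction between lines. In NaJa-G the fibroblast sum was 54.6 to 74.9 CPM in DMSO day 1, 14.8 to 17.4 CPM in DMSO day 5, 89.3 to 105 CPM in encorafenib day 1 and 102 to 118 CPM in encorafenib day 5. The sum of 4 proliferation markers (Mki67, Top2a, Mcm2 and Pcna) in NaJa-G was 2116 to 2255 and 2148 to 2501 CPM in DMSO and 1112 to 1163 and 1472 to 1515 CPM in encorafenib, for days 1 and 5 in that order. For NaJa-D the values were 2298 to 2533 and 1850 to 2072 CPM in DMSO and 1575 to 1612 and 1147 to 1229 CPM in encorafenib, and in NaJa-F all groups lay between 1669 and 2103 CPM. The mesothelial sum, nearly all Msln, was higher in encorafenib than in DMSO in every line and on both days, as in NaJa-G at day 1 (558 to 724 CPM in DMSO and 1328 to 1523 CPM in encorafenib). The part of cell makeup or proliferation in the results was not tested.

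Read within each day, encorafenib against DMSO gave opposite signs for several members. These comparisons share their DMSO libraries with the DMSO changes with time, so both sets are given side by side and not as separate evidence. At day 1, Notum was higher in encorafenib in all lines, by 0.72 (SE 0.23) in NaJa-D, 1.34 (SE 0.15) in NaJa-F and 2.64 (SE 0.12) in NaJa-G, the last a 6.25-fold rise. At day 5 it was lower in all lines, by 0.95 (-0.95, SE 0.16), 1.63 (-1.63, SE 0.17) and 0.35 (-0.35, SE 0.11). The NaJa-D day 1 call was lost without each of 4 libraries, DMSO replicates 1 and 3 (adjusted p = 0.0631 and 0.0608) and encorafenib replicates 1 and 2 (0.0275 and 0.0438). The NaJa-G day 5 libraries overlapped, and the call did not pass with edgeR (adjusted p = 0.0269) or DESeq2 (0.0283). It was -0.11 without DMSO replicate 3, and -0.59 without DMSO replicate 1, which left 1 library in the DMSO group. Notumos was lower at day 5 in every line as well (NaJa-G -1.05, NaJa-F -1.32, NaJa-D -1.38). At day 1 it passed in NaJa-G (1.48), with 0.16 and 0.66 in NaJa-D and NaJa-F.

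Nkd1 at day 1 was higher in encorafenib in NaJa-F, by 0.70 (SE 0.11), and in NaJa-G, by 1.80 (SE 0.08), where 78.2 to 97.9 CPM in DMSO stood against 289 to 302 CPM in encorafenib. At day 5 it was lower in both, by 2.62 (-2.62, SE 0.16) in NaJa-F and 0.65 (-0.65, SE 0.09) in NaJa-G. The NaJa-F fall was the largest of any member and day, with 27 to 29.5 CPM in DMSO and 4.26 and 4.9 CPM in encorafenib. Nkd1 did not pass on either day in NaJa-D, with log2 fold changes of 0.48 and -0.25.

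Axin2 was higher at day 1 in all lines, by 0.96 (SE 0.06) in NaJa-G, 0.25 (SE 0.06) in NaJa-F and 0.28 (SE 0.06) in NaJa-D. In NaJa-G, 217 to 223 CPM in DMSO stood against 403 to 452 CPM in encorafenib at day 1, and 405 and 428 CPM against 417 to 449 CPM at day 5. At day 5 it was lower in NaJa-F, by 0.32 (-0.32, SE 0.07), and did not pass in NaJa-D or NaJa-G. The NaJa-D day 1 call was lost without DMSO day 1 replicate 3, the library with the conflicting label (0.22, adjusted p = 0.0107), and the NaJa-F calls without encorafenib replicate 1 of each day (0.0121 at day 1 and 0.0474 at day 5).

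Rnf43 rose at day 1 in all lines, by 0.24 (SE 0.07), 0.39 (SE 0.07) and 1.61 (SE 0.07). In NaJa-G, 90.1 to 105 CPM in DMSO stood against 293 to 307 CPM in encorafenib, a 3.06-fold difference. At day 5 it passed in no line. The NaJa-D call was lost in 4 of the fits that left out 1 library, with adjusted p from 0.0112 to 0.068. Lgr5 rose at day 1 in NaJa-F, by 0.76 (SE 0.13), and NaJa-G, by 1.10 (SE 0.07), and passed in no line at day 5, where NaJa-G had 20.1 and 22.1 CPM in DMSO and 20.4 to 21.3 CPM in encorafenib.

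Tcf7 and Znrf3 had a different course from Axin2 and Rnf43, with no called rise in encorafenib on either day. Lef1 and Sp5 had no called rise either. The mean of Znrf3 in NaJa-G at day 1 was 92.33 CPM in encorafenib and 87.35 CPM in DMSO, which did not pass. Tcf7 was lower at day 1 in NaJa-D (-0.50, SE 0.07) and NaJa-G (-0.37, SE 0.06), with NaJa-F at -0.20 (adjusted p = 0.0145). At day 5 it was lower in all lines, by 0.43 (-0.43, SE 0.06), 0.58 (-0.58, SE 0.07) and 1.54 (-1.54, SE 0.07). In NaJa-G at day 5, Tcf7 was at 113 and 118 CPM in DMSO and at 38.8 to 40.1 CPM in encorafenib, the widest gap of this gene. Znrf3 was lower in NaJa-D on both days (-0.54, SE 0.06 on each) and in NaJa-G at day 5 (-0.40, SE 0.07), and passed on neither day in NaJa-F.

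Lef1 was lower in encorafenib at day 5 in NaJa-F, at 0.68 and 0.795 CPM against 3.23 to 3.92 CPM in DMSO (-2.25, SE 0.25), and in NaJa-G, at 3.59 to 3.72 CPM against 5.97 and 6.82 CPM (-0.81, SE 0.13). The NaJa-G call did not pass with limma-trend (adjusted p = 0.0253). Lef1 passed in no line at day 1. Apc was higher in encorafenib in NaJa-G on both days, by 0.34 (SE 0.08) and 0.31 (SE 0.10). The day 5 value was 0.12 without DMSO replicate 3 and 0.50 without DMSO replicate 1, and the call was lost in 4 of 5 such fits.

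Sp5 passed in no encorafenib comparison. In NaJa-F at day 5 the 2 encorafenib libraries were at 3.11 and 8.96 CPM, against 3.21 to 3.84 CPM in DMSO, so replicate 2 stood far above replicate 1 and above every other library of this gene. The log2 fold change was 0.58 (SE 0.27). It was 1.32 (adjusted p = 1.2e-05) without replicate 1, a value that rests on the high library alone.

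**Figure D3:**
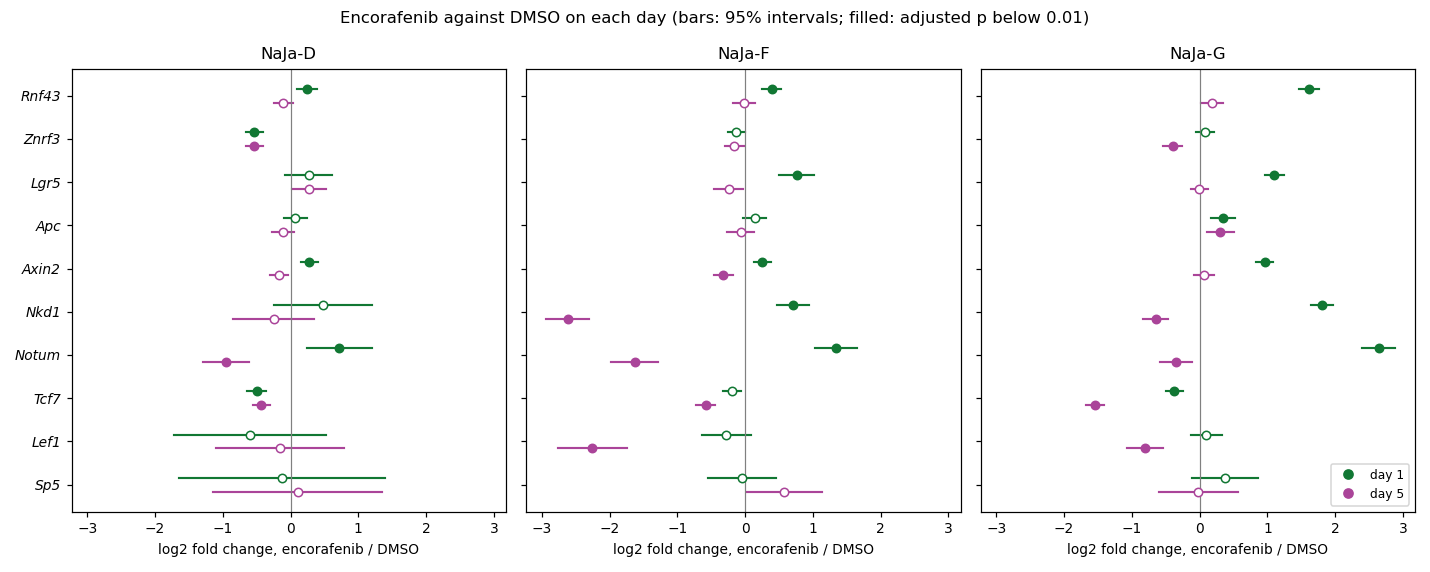
Log2 fold change of encorafenib over DMSO (horizontal axis) of each member at day 1 (green) and day 5 (purple) for the 3 lines, with 95% intervals and filled points at an adjusted p below 0.01. Notum lies right of 0 at day 1 and left of 0 at day 5 in every line, and Tcf7 lies left of 0 throughout.

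At day 1, 5 of the 10 members passed in NaJa-D, 3 higher and 2 lower (44.9% of all genes called, 23.7% higher and 21.2% lower). In NaJa-F 5 passed, all higher (29.5% called, 17.5% higher), and in NaJa-G 7, 6 higher and 1 lower (64.0% called, 35.3% higher and 28.7% lower). At day 5, 3 passed in NaJa-D (all lower, 33.0% called and 14.7% lower), 5 in NaJa-F (all lower, 18.2% called and 8.50% lower) and 6 in NaJa-G (1 higher and 5 lower, 53.2% called, 28.5% higher and 24.7% lower). In NaJa-D and NaJa-G the shares called in either direction together were near the background on both days. The split by direction was less even. In NaJa-G, 6 of 10 were higher at day 1 beside 35.3%, and 5 of 10 lower at day 5 beside 24.7%. The opposite directions there held 1 of 10 each, beside 28.7% and 28.5%. In NaJa-D at day 5, 3 of 10 were lower beside 14.7%. The NaJa-D day 1 count was 2 without DMSO day 1 replicate 3.

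The response itself differed between lines. At day 1, 6 members differed between NaJa-G and NaJa-D, all with a higher value in NaJa-G (36.4% of all genes called, 20.2% higher), and 4 between NaJa-G and NaJa-F (33.5% called, 19.2% higher). The largest differences against NaJa-D were those of Notum (1.92, SE 0.26), Rnf43 (1.37, SE 0.10) and Nkd1 (1.33, SE 0.36). The Nkd1 call was lost without NaJa-D DMSO replicate 1 (adjusted p = 0.0216), DMSO replicate 2 (0.0104) or encorafenib replicate 1 (0.0173). NaJa-F and NaJa-D differed in 1 member, Znrf3 (0.41, SE 0.09, 8.79% of all genes called and 4.49% higher).

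At day 5, Axin2 (0.38, SE 0.10), Nkd1 (1.97, SE 0.18) and Notum (1.28, SE 0.20) again had a higher response in NaJa-G than in NaJa-F, as did Lef1 (1.45, SE 0.28). The Axin2 call was lost without day 5 replicate 1 of NaJa-F encorafenib, which left 1 library there (adjusted p = 0.0539), replicate 1 of NaJa-F DMSO (0.0124) or of NaJa-G DMSO (0.0238, also leaving 1 library), or replicate 2 of NaJa-G encorafenib (0.0107). Tcf7 had a lower response in NaJa-G, by -1.11 (SE 0.09) against NaJa-D and -0.96 (SE 0.10) against NaJa-F. Nkd1 and Lef1 had a lower response in NaJa-F than in NaJa-D, by -2.37 (SE 0.33) and -2.09 (SE 0.52). The Lef1 difference was lost in 7 of 11 fits that left out 1 library. It was -1.43 without NaJa-D DMSO day 5 replicate 3. Znrf3 also differed between these lines (0.38, SE 0.09), a call lost in 8 of the 11 fits (adjusted p from 0.0118 to 0.0229). In all, 3 members passed in NaJa-F against NaJa-D, with 1 higher and 2 lower (8.85% of all genes called, 4.08% higher and 4.77% lower). Between NaJa-G and NaJa-D 1 passed, lower (21.9% called, 7.82% lower), and between NaJa-G and NaJa-F 5, 4 higher and 1 lower (24.2% called, 16.2% higher and 7.95% lower).

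The change with time in DMSO also differed between lines. Against NaJa-D, the rise in NaJa-G was larger for Rnf43 (1.08, SE 0.10), Znrf3 (0.75, SE 0.09) and Axin2 (0.69, SE 0.09), 3 of the 10 members (14.8% of all genes called, 8.98% higher). Against NaJa-F, 4 members differed, 3 higher and 1 lower (6.27% called, 3.06% higher and 3.21% lower), with Nkd1 rising less in NaJa-G (-0.59, SE 0.14) and Rnf43 more (0.76, SE 0.10). The Nkd1 call was lost in 7 of 11 fits that left out 1 library, and those of Axin2 and Znrf3 in 9 each. Between NaJa-F and NaJa-D, Znrf3 differed (0.38, SE 0.09, 4.42% called and 3.01% higher). Scaling by library size only moved the median difference of all genes between NaJa-G and NaJa-D to -0.136.

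Other parts of the pathway were read from lists, of which 69 genes were in the table. Of 12 measured ligand genes (10 Wnt genes, with Porcn, which acylates WNT proteins, and Wls, which carries them to the cell surface), encorafenib raised 10 in NaJa-D at day 1 and 9 at day 5, 6 in NaJa-F on each day, and 9 in NaJa-G on each day. Of all genes, encorafenib gave higher values at day 1 and day 5 in 35.3% and 28.5% for NaJa-G, 17.5% and 9.70% for NaJa-F, and 23.7% and 18.3% for NaJa-D. Wnt2 fell in NaJa-G on both days (-0.89 and -1.37), and no other ligand gene fell. The median log2 fold change of these 12 genes on days 1 and 5 was 1.51 and 1.53 for NaJa-G, 0.88 and 1.39 for NaJa-D and 0.71 and 0.45 for NaJa-F, beside -0.02 to 0.04 over all genes.

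Wnt4 was raised in every line and on both days. It was at 3.61 CPM ± 0.95 (SD, n = 3) in DMSO and 28.6 CPM ± 3.1 in encorafenib at day 1 in NaJa-D, and at 9.67 CPM ± 1.0 and 152 CPM ± 3.8 in NaJa-G, log2 fold changes of 3.01 and 3.97. Wnt9a, Wnt10a, Wnt7b and Wls were also raised in all 6 comparisons. Wnt9a had log2 fold changes from 1.62 to 4.75, and Wnt7b from 0.55 to 1.52. Wnt7a itself passed in NaJa-G at day 5 (0.73) and in no other comparison.

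**Figure D4:**
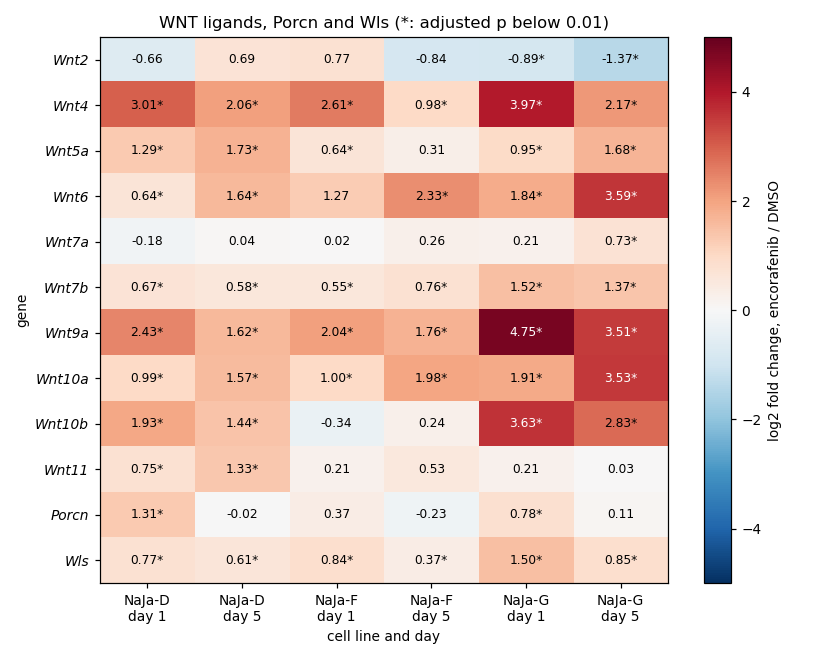
Log2 fold change of encorafenib over DMSO (color and printed value) for 12 WNT ligand genes, Porcn and Wls included, in rows, and the 6 comparisons of line and day in columns, with asterisks at an adjusted p below 0.01. Wnt4, Wnt7b, Wnt9a, Wnt10a and Wls are raised in all columns, and Wnt2 is lowered in NaJa-G.

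The counts of the next lists stand beside the shares of all genes called by encorafenib, 44.9%, 29.5% and 64.0% at day 1 and 33.0%, 18.2% and 53.2% at day 5 (NaJa-D, then NaJa-F, then NaJa-G). Among 17 receptors and R-spondin pathway genes, encorafenib called 1 higher and 8 lower in NaJa-D at day 1, 2 higher and 3 lower in NaJa-F, and 9 higher and 6 lower in NaJa-G. At day 5 the counts were 1 and 9, 1 and 4, and 5 and 5. In all 52.9%, 29.4% and 88.2% of the list was called at day 1. Fzd4 and Fzd5, both Frizzled receptors, fell in all 6 comparisons, with log2 fold changes of -0.40 to -1.44 and -0.38 to -1.05. Lgr4, a relative of Lgr5, rose at day 1 in all lines, by 0.22, 0.37 and 1.09, and passed in none at day 5. Lgr6, another relative, fell in all comparisons except NaJa-G day 1, where it rose by 0.58.

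Of 13 destruction complex and cytoplasmic genes, 7 rose and 2 fell at day 1 in NaJa-G, 5 rose and 0 fell in NaJa-D, and 2 rose and 0 fell in NaJa-F. At day 5 these counts were 4 and 3, 1 and 1, and 1 and 0. The share of the list called at day 1, 69.2% in NaJa-G, 38.5% in NaJa-D and 15.4% in NaJa-F, was near or below that of all genes. Ctnnb1, which encodes β-catenin, rose in NaJa-D by 0.85 at day 1 and 0.55 at day 5, in NaJa-G by 0.39 and 0.20, and in NaJa-F by 0.25 at day 1, with 0.10 at day 5 not passing. Axin1, the constitutive relative of Axin2, passed in none of the 6 comparisons (-0.01 to 0.09). The nuclear list held 10 genes, which were cofactors and the TCF genes Tcf7l1 and Tcf7l2. In NaJa-G 6 of these rose and 0 fell at day 1, and 1 rose and 4 fell at day 5. In the other lines 3 rose and 1 fell (NaJa-D day 1), 3 rose and 0 fell (NaJa-D day 5), 0 rose and 1 fell (NaJa-F day 1), and 0 rose and 2 fell (NaJa-F day 5). The called shares, 60% and 50% in NaJa-G, 10% and 20% in NaJa-F, and 40% and 30% for NaJa-D, were near or below those of all genes. In NaJa-G the change with time was lower in encorafenib than in DMSO for 6 of these 10 genes (31.7% of all genes called, 16.2% lower). Among them were Bcl9 (-0.73) and Bcl9l (-0.76), which link β-catenin to its coactivators. The mean of Tle1, also of this list, went from 86.4 to 130 CPM in DMSO and from 87.7 to 78.5 CPM in encorafenib there. Of 3 WNT antagonist genes in the table, Kremen1, a receptor for the Dkk proteins, rose in all 6 comparisons, by 0.41 to 1.34. Sfrp1, with group means of 0.296 to 1.12 CPM, was lower at day 1 in NaJa-D (-1.11) and NaJa-F (-0.92). It was higher at day 5 in NaJa-G (1.46), and passed in no other of these comparisons. Dkk2 passed in 5, with signs that differed between lines (-0.49 in NaJa-D and 1.74 in NaJa-G at day 1).

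Of 14 other WNT and intestinal stem cell targets, 5 rose and 6 fell in NaJa-G at day 1, 1 rose and 8 fell in NaJa-D, and 0 rose and 6 fell in NaJa-F. At day 5 these counts were 4 and 4, 0 and 6, and 0 and 5. The share called at day 1 was 78.6% in NaJa-G, 64.3% in NaJa-D and 42.9% in NaJa-F, beside 64.0%, 44.9% and 29.5% of all genes. Smoc2, a stem cell marker that encodes a secreted matrix protein, fell in every line and on both days, with log2 fold changes from -2.30 in NaJa-F at day 1 to -4.44 in NaJa-F at day 5. In NaJa-G it was at 296 CPM ± 4.8 (SD, n = 3) in DMSO and 44.5 CPM ± 0.97 in encorafenib at day 1. Lrig1, a stem cell marker and inhibitor of receptor tyrosine kinases, fell in 5 of 6 comparisons, and Cdca7 in all 6. Myc fell at day 1 in all lines, by -0.49, -0.35 and -1.23. These targets thus included genes that fell at day 1, when Axin2 and Rnf43 were higher in encorafenib.

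Among the genes whose course was most like that of Axin2 over the 12 groups, after the mean of each line was subtracted from log2 CPM, were Tbc1d8b (Pearson r = 0.953), Pcdhgb1 (0.949), Rcor3 (0.946) and Dock1 (0.938). For Lgr5 they were Chm (0.954), Crbn (0.952), Nxpe4 (0.949), Dram2 (0.947) and Pex3 (0.946). Among the members, Axin2 was most like Notum (0.877) and Rnf43 (0.827), and Nkd1 most like Notum (0.815) and Lef1 (0.753). Tcf7 and Axin2 had r = -0.10. These values are descriptions over 12 group means that share lines, treatment and time.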

How the data were processed

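RNA from 34 libraries in 12 groups was represented by 1 table of whole-number counts per gene, as deposited by the authors, for 14107 genes. Per the submitters' processing notes, Trimmomatic 0.39 and STAR 2.5.2b were used with GRCm38. The counting tool, annotation release and use of strand were not given in the sources used here. The study's methods name limma with TMM factors, a row sum above 2 and an adjusted p below 0.01. In the deposited counts every gene exceeded 1 CPM in at least 2 libraries, and the smallest summed count was 360, so lower genes were not analysed here.

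Counts were fitted with limma 3.58.1 (voom, TMM factors from edgeR 4.0.16, R 4.3.3) in 1 model of group means over all 34 libraries, with Benjamini-Hochberg adjusted p values over all 14107 genes and a threshold of 0.01. All p values in the text are adjusted p values of this fit unless another tool or a left-out library is named, and intervals are at 95%. The code was tested on simulated data. Gene symbols, positions and exon lengths came from GENCODE M21 (GRCm38), and promoter sequences from RefSeq (GRCm38.p6).

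The genes named are the 10 members, the genes of the pathway lists, the 5 genes most like Axin2 and the 5 most like Lgr5, antisense genes that overlap members and the cell type markers. Of the genes most like Axin2, 1 is not reported here. The members and lists were chosen with earlier results of these data known. Alternatives were DESeq2 1.42.0, the quasi-likelihood test of edgeR, limma-trend with a prior count of 3, RLE scaling, library size only, 2 filters on low counts, other thresholds, only the groups compared, a replicate block and leaving out each library. Where that left 1 library in a group, it was assumed to vary like the other groups. Total counts of 46007050 to 80121299 leave counting error large for genes near 0.1 CPM, such as Lef1 in NaJa-D.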

Additional observations from a re-analysis of the deposited data

Results flagged for a closer look

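Effects of the same contrast were compared between days or between lines in 12 differences per member, 120 in all, and 45 passed at an adjusted p below 0.01 in limma. Over all genes, 4.42% to 36.4% passed, depending on the difference. Each value is a difference of log2 fold changes. No group had 4 or more libraries, so single libraries were not tested for standing apart.

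In NaJa-D, the change from day 1 to day 5 in encorafenib minus that in DMSO was -0.44 for Axin2 and -1.67 for Notum. In NaJa-F, the change from day 1 to day 5 in encorafenib minus that in DMSO was -0.58 for Axin2, -3.32 for Nkd1, -2.97 for Notum, -0.41 for Rnf43, -1.0 for Lgr5, -0.39 for Tcf7 and -1.97 for Lef1. In NaJa-G, the change from day 1 to day 5 in encorafenib minus that in DMSO was -0.90 for Axin2, -2.45 for Nkd1, -2.99 for Notum, -1.43 for Rnf43, -0.48 for Znrf3, -1.10 for Lgr5, -1.17 for Tcf7 and -0.90 for Lef1.

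At day 1, the encorafenib response in NaJa-G minus that in NaJa-D was 0.68 for Axin2, 1.33 for Nkd1, 1.92 for Notum, 1.37 for Rnf43, 0.61 for Znrf3 and 0.83 for Lgr5. At day 1, the encorafenib response in NaJa-G minus that in NaJa-F was 0.70 for Axin2, 1.10 for Nkd1, 1.31 for Notum and 1.22 for Rnf43. At day 5, the encorafenib response in NaJa-G minus that in NaJa-F was 0.38 for Axin2, 1.97 for Nkd1, 1.28 for Notum, -0.96 for Tcf7 and 1.45 for Lef1. For the change with time in DMSO, NaJa-G minus NaJa-D was 0.69 for Axin2, 1.08 for Rnf43 and 0.75 for Znrf3. For the change with time in DMSO, NaJa-G minus NaJa-F was 0.38 for Axin2, -0.59 for Nkd1, 0.76 for Rnf43 and 0.37 for Znrf3. At day 5, the encorafenib response in NaJa-F minus that in NaJa-D was -2.37 for Nkd1, 0.38 for Znrf3 and -2.09 for Lef1. At day 1, the encorafenib response in NaJa-F minus that in NaJa-D was 0.41 for Znrf3. For the change with time in DMSO, NaJa-F minus NaJa-D was 0.38 for Znrf3. At day 5, the encorafenib response in NaJa-G minus that in NaJa-D was -1.11 for Tcf7.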

How the results depend on the processing

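Of the 133 member values called by limma, none changed its sign under any alternative or with any library left out. Sign changes were seen in 32 of 2916 values under alternatives and 79 of 2380 with a library left out, in values that were not called. The number of members called moved by over 1.5 times in the following cases, and the cause was not tested where the construction of the alternative does not show it. The filterByExpr filter removed no gene, and it and RLE scaling moved no count over that limit.

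For the change with time in DMSO of NaJa-F against NaJa-D the count was 1, and it was 4 with DESeq2, 2 with edgeR, 3 with limma-trend, 3 among the 8 members averaging at least 2 log2 CPM, and 0 both with library size only and with only the groups compared. For the encorafenib response at day 5 of NaJa-G against NaJa-D it was 1, and 2 with DESeq2, limma-trend or that filter. For the response at day 1 of NaJa-F against NaJa-D it was 1, and 2 with DESeq2 and 0 with only the groups compared. With only the groups compared, counts went from 5 to 2 for encorafenib in NaJa-D at day 1, 5 to 3 for time in encorafenib in NaJa-D (3 also with library size only), 2 to 1 for the difference between arms in NaJa-D, and 4 to 1 for the change in DMSO of NaJa-G against NaJa-F.

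At an adjusted p below 0.05, counts rose from 1 to 2 (day 1) and 3 to 5 (day 5) for the response of NaJa-F against NaJa-D, 1 to 4 for NaJa-G against NaJa-D at day 5, and 1 to 4 and 3 to 5 for the change in DMSO of NaJa-F and NaJa-G against NaJa-D. Where a log2 fold change of 1 or more in size was also required, they fell, for encorafenib at day 1 and day 5, from 5 to 0 and 3 to 0 in NaJa-D, 5 to 1 and 5 to 3 in NaJa-F and 7 to 4 and 6 to 1 in NaJa-G. For time in DMSO they fell from 4 to 1 in NaJa-D, 6 to 3 in NaJa-F and 7 to 3 in NaJa-G, for time in encorafenib from 5 to 0 in NaJa-D and 6 to 1 in NaJa-G, and for the difference between arms from 2 to 1, 7 to 4 and 8 to 5. Between lines they fell from 9 to 4 (NaJa-F against NaJa-D) and 8 to 5 (NaJa-G against NaJa-F), for the response from 1 to 0 and 6 to 3 at day 1 (NaJa-F and NaJa-G against NaJa-D) and 5 to 3 at day 5 (NaJa-G against NaJa-F), and for the change in DMSO from 1 to 0, 3 to 1 and 4 to 0.

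With 1 library left out, the ranges that moved were 0 to 3 (change in DMSO, NaJa-F against NaJa-D), 3 to 5 (NaJa-G against NaJa-D), 1 to 3 (NaJa-G against NaJa-F), 3 to 4 (time in encorafenib, NaJa-D), 2 to 5 (encorafenib in NaJa-D at day 1), 0 to 2 and 1 to 2 (response of NaJa-F against NaJa-D at day 1 and day 5) and 1 to 2 (NaJa-G against NaJa-D at day 5).

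Replicate numbers showed no pairing of the libraries in the correlations of their deviations. Same-numbered libraries of different groups of a line had correlations from -0.333 to 0.215 in 48 pairs, 5 of them over 0.1. Different-numbered libraries had -0.341 to 0.333 in 96 pairs, 19 of them over 0.1. With 2 or 3 libraries in a group, these values are descriptions. A replicate block moved 1 count over the limit, the response at day 5 of NaJa-G against NaJa-D, from 1 to 2, with Apc gained (0.44, adjusted p = 0.00195). It changed 7 of 270 member calls, 6 gained and 1 lost, Nkd1 in the change in DMSO of NaJa-G against NaJa-F (-0.57, adjusted p = 0.0109).

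Library size only also moved the share of higher genes among all calls by over 10 points for encorafenib in NaJa-D at day 1 (52.8% to 63.6%), for time in encorafenib (46.7% to 75.0%, 45.1% to 69.7% and 50.2% to 61.8%, in the order NaJa-D, NaJa-F, NaJa-G), for the lines (52.9% to 66.5% and 49.4% to 59.9%, NaJa-F and NaJa-G against NaJa-D), for the response against NaJa-D (51.0% to 34.7% in NaJa-F and 55.5% to 40.2% in NaJa-G at day 1, 64.3% to 51.4% in NaJa-G at day 5) and for the change in DMSO (67.9% to 32.7% and 60.7% to 34%). Depth limits Lef1, Sp5 and Nkd1 in NaJa-D, where as few as 2, 11 and 25 counts stood behind a library's value.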
